A study of Homo sapiens with 15 samples.

Results

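The 10 genes described here mark or direct epithelial-mesenchymal transition, the programme by which epithelial cells loosen their contacts and take on motile, fibroblast-like properties. They were CDH1, CDH2, CDH3, EPCAM, VIM, FN1, SNAI2, ZEB1, ZEB2 and TWIST1, and their members were the non-control probes whose RefSeq transcript in the scanner annotation belongs to 1 of these genes. The rule found 14 probes of the 42405 on the array. The cells were PE/CA-PJ41, an established human oral squamous carcinoma line, read on Agilent SurePrint arrays in the green channel. The NCE group, non-cytoglobin expressing, carries an empty transfection vector per the sample labels, while the paper calls this control un-transfected, and the CYGB+ group carried the pCMV6-Neo plasmid with the human cytoglobin cDNA, a haem protein of the globin family. Stable clones were selected with G418, and all cultures had 24 h in supplemented medium before RNA was taken. The study's methods name 1 clone, LST421, for the CYGB+ arrays, so the clone and cytoglobin cannot be told apart. RNA came from 3 extractions per group, giving 3 biological replicates of each. NCE had 3 array repeats per replicate, 9 arrays in all, and CYGB+ had 2 per replicate, 6 arrays in all. The labels give separate occasions but no separate clones, so p-values measure the spread between these extractions of 1 line each.

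Epithelial cells hold together through cadherins, which bind the same cadherin on the neighbouring cell and anchor to actin through catenins. In the transition, CDH1 (E-cadherin) is classically repressed by zinc-finger and helix-loop-helix factors of the SNAI, ZEB and TWIST families, which bind E-boxes, while CDH2 (N-cadherin), the intermediate filament VIM (vimentin) and the matrix protein FN1 (fibronectin) are the usual mesenchymal markers. Squamous carcinomas are known for partial states in which epithelial and mesenchymal genes are expressed side by side.

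The transfected gene itself did not separate the labels. The CYGB probe gave log2 signals of 12.85, 13.16 and 12.96 in the 3 NCE replicates and 12.37, 13.42 and 13.01 in the 3 CYGB+ replicates, a difference of -0.05 (SE 0.27, limma adjusted p = 0.922). The probe was well above background on all 15 arrays, and its position relative to the cDNA in the plasmid is not given in the sources used here. The study reports LST421 as a clone with high cytoglobin by qPCR and in-cell ELISA, and the parent line as not expressing it. Those assays were not analysed here. The bright signal of this probe in NCE stands beside that report, and its cause was not tested. All directions below compare arrays labelled CYGB+ with arrays labelled NCE. The study's methods put the control RNA in the red dye, but the labels name Cy3, the green dye, for every array, and what RNA the red channel held is not given in the sources used here. The authors' processed table followed the green signal, and the green channel was used. Of the 15 arrays, array repeat 1 of CYGB+ replicate 1 stood apart. Its mean correlation with the other arrays was 0.910, against 0.953 to 0.972 for the others, and its median signal of 17.7 was the lowest. The arrays lay on 2 slides, 1 with 8 NCE arrays and the other with 1 NCE array, of NCE replicate 1, and all 6 CYGB+ arrays. Slide and group were thus nearly the same split. Differences are therefore also given with slide as a block and within the second slide. The fit with slide as a block took the 15 single arrays, with the biological replicate as a random block (correlation 0.216). Its adjusted p-values rest partly on array repeats, so they do not compare directly with those of the main fit, which took replicate means. Within the second slide, slide and NCE replicate 1 cannot be told apart. Squamous markers were bright, with a log2 summed signal of 17.02 to 17.15 in NCE and 16.95 to 17.36 in CYGB+. All 6 squamous markers (KRT5, KRT14, KRT6A, KRT17, TP63 and SFN) passed the background filter, and 0 of them passed the test between the groups. Markers of other cell types passed in part, 2 of 5 for leukocytes (CD14 and CD68), 2 of 4 for melanocytes and 1 of 4 for endothelium. The leukocyte sum was 10.09 to 10.43 in NCE and 10.22 to 10.49 in CYGB+. Of 8 fibroblast markers, 2 passed the filter (COL1A1 and COL1A2), and COL3A1, LUM, PDGFRB and THY1 were above background on no array. The log2 of the summed signal of the fibroblast list was 8.67 to 8.96 in the NCE replicates and 6.98 to 7.45 in the CYGB+ replicates, and its part in the results below was not tested. The lower sum came with COL1A2 (difference -2.53), while COL1A1 gave 0.23 (SE 0.39, adjusted p = 0.744).

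Of the 14 probes, 11 (9 genes) were well above background on at least 6 of the 15 arrays and were tested. Only CDH3 and ZEB1 passed an adjusted p of 0.05, CDH3 lower and ZEB1 higher in the arrays labelled CYGB+. ZEB1 was above background on 1 of 9 NCE arrays and 6 of 6 CYGB+ arrays, so it reached the filter only through the group in which it was higher, and its call is a description. Of the 10 probes above background on at least 50% of the arrays of each group, 1 was called, where 8.26% of all 22311 probes tested were called (4.37% higher and 3.89% lower). The replicates of the 2 groups did not overlap for 6 of the 11 probes (54.5%), ZEB1 among them, against 33% of all probes tested. For ZEB1 this too is a description, since most NCE arrays did not read the probe. The median difference of the 11 probes was -0.09 on the log2 scale, with 5 probes positive and 6 negative, and that of all tested probes was -0.01. Without the array that stood apart, 3 of the 11 were called (CDH3, EPCAM and ZEB1), beside 16.6% of all probes. The genes were chosen with earlier results of these data known, and this array was left out after seeing the data. The shares of the 11 probes are therefore descriptions. With 1 biological replicate left out in turn, 0 to 2 of the 11 were called, beside 209 to 857 higher and 180 to 798 lower of all 22311 probes.

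**Figure D1:**
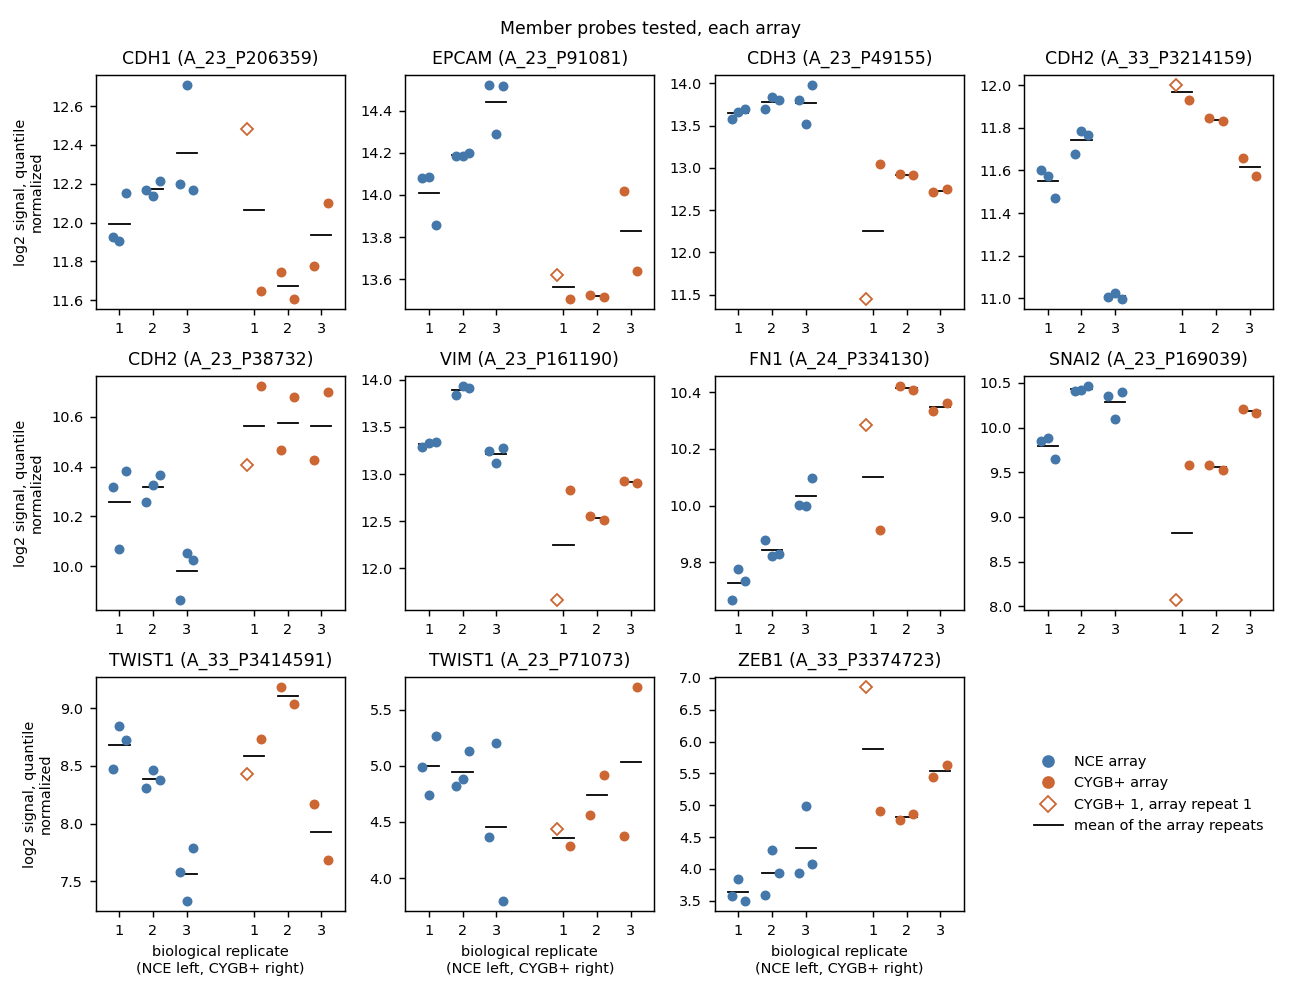
Log2 quantile-normalized green signal (vertical axis) of the 11 tested probes on each array, by biological replicate (horizontal axis, NCE left and CYGB+ right), with a line at the mean of the array repeats and an open diamond for array repeat 1 of CYGB+ replicate 1. The 9 NCE arrays of CDH3 sit between 13.52 and 13.98, above all 6 CYGB+ arrays, and the diamond is the lowest point of CDH3, VIM and SNAI2 and the highest of ZEB1.

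CDH3 (P-cadherin), the classical cadherin of basal and squamous epithelium, was lower in CYGB+ than in NCE. Its log2 signal was 13.65, 13.78 and 13.77 in the NCE replicates and 12.25, 12.92 and 12.73 in the CYGB+ replicates. Every NCE array lay above every CYGB+ array. The difference was -1.10 (SE 0.20, 95% confidence interval -1.58 to -0.62), a level 2.14-fold lower in CYGB+, with a limma adjusted p of 0.0218. The array that stood apart read 11.45, against 12.71 to 13.04 on the other 5 CYGB+ arrays. Without that array the difference was -0.83 (SE 0.13) and the adjusted p 0.00931. The direction held in all 23 alternative fits and the call in 16 of them. The adjusted p was 0.0636, 0.0963 and 0.0866 without NCE replicate 1, 2 or 3 and 0.054 without CYGB+ replicate 3. With slide as a block the difference was -1.10 (SE 0.44, adjusted p = 0.256), and within the slide that held both groups, with 1 NCE array, it was -1.06 (SE 0.38, adjusted p = 0.427). With slide as a block and without the array that stood apart it was -0.87 (SE 0.18, adjusted p = 0.0121).

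CDH1, the defining cadherin of epithelia, was measured by 10 spots of 1 probe. Its signal was 11.99, 12.17 and 12.36 in the NCE replicates and 12.06, 11.68 and 11.94 in the CYGB+ replicates. The replicates overlapped, and the difference of -0.28 (SE 0.18, 95% confidence interval -0.70 to 0.14, adjusted p = 0.358) did not pass. The 2 arrays of CYGB+ replicate 1 read 12.48 and 11.65, and without the first of them, the array that stood apart, the difference was -0.42 (adjusted p = 0.103). The SD of the kept spots within an array was 0.073 to 0.19 on the log2 scale. On array repeat 2 of NCE replicate 1, 9 of the 10 spots were kept. The marked spot was 135-fold brighter than the median of the kept spots, and it was left out.

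EPCAM, an adhesion molecule of simple and carcinoma epithelia, had signals of 14.01, 14.19 and 14.44 in NCE and 13.56, 13.52 and 13.83 in CYGB+. The replicates did not overlap. The difference was -0.57 (SE 0.18, 95% confidence interval -0.997 to -0.15), with an adjusted p of 0.0944. Without the array that stood apart it was -0.59 (SE 0.16, adjusted p = 0.0494). It was -0.22 (SE 0.32) within the slide that held both groups and -0.28 (SE 0.21) with slide as a block. The only NCE array on that slide was of NCE replicate 1, the lowest NCE replicate for EPCAM. Slide and replicate cannot be told apart there, and the slide's part in the EPCAM difference was not tested.

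Of the mesenchymal markers among the 10 genes, VIM had the largest difference, and it was lower in CYGB+. Its signal was 13.32, 13.89 and 13.21 in the NCE replicates and 12.25, 12.54 and 12.92 in the CYGB+ replicates. All 9 NCE arrays, from 13.12 to 13.93, lay above all 6 CYGB+ arrays, from 11.67 to 12.93. The difference was -0.91 (SE 0.25, 95% confidence interval -1.50 to -0.32), and the adjusted p of 0.0688 missed the threshold. The difference was negative in all 22 alternative fits that gave a value, from -1.08 to -0.68, and passed in 4 of them. Without the array that stood apart, which read 11.67, it was -0.71 (SE 0.21, adjusted p = 0.0596). With slide as a block it was -0.84 (SE 0.40, adjusted p = 0.389).

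CDH2, the cadherin that mesenchymal and neural cells use, was read by 2 probes, both above background on every array. The first (A_33_P3214159) gave 11.55, 11.74 and 11.01 in NCE and 11.97, 11.84 and 11.61 in CYGB+. These replicates overlapped, because NCE replicate 2 was higher than CYGB+ replicate 3. The second (A_23_P38732) gave 10.26, 10.32 and 9.98 in NCE and 10.56, 10.57 and 10.56 in CYGB+, with no overlap. The differences of 0.37 (SE 0.23, adjusted p = 0.335) and 0.38 (SE 0.16, adjusted p = 0.175) were of similar size on the 2 probes and neither passed. Within the slide that held both groups they were 0.34 (SE 0.33) and 0.18 (SE 0.31). FN1, the fibronectin of the extracellular matrix, gave 9.73, 9.84 and 10.03 in NCE and 10.10, 10.41 and 10.35 in CYGB+. Its replicates did not overlap either. The difference of 0.42 (SE 0.17, 95% confidence interval 0.03 to 0.82, adjusted p = 0.163) did not pass, and within the slide that held both groups it was 0.55 (SE 0.32). The FN1 probe is annotated to 1 FN1 transcript, and no other FN1 probe met the rule.

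**Figure D2:**
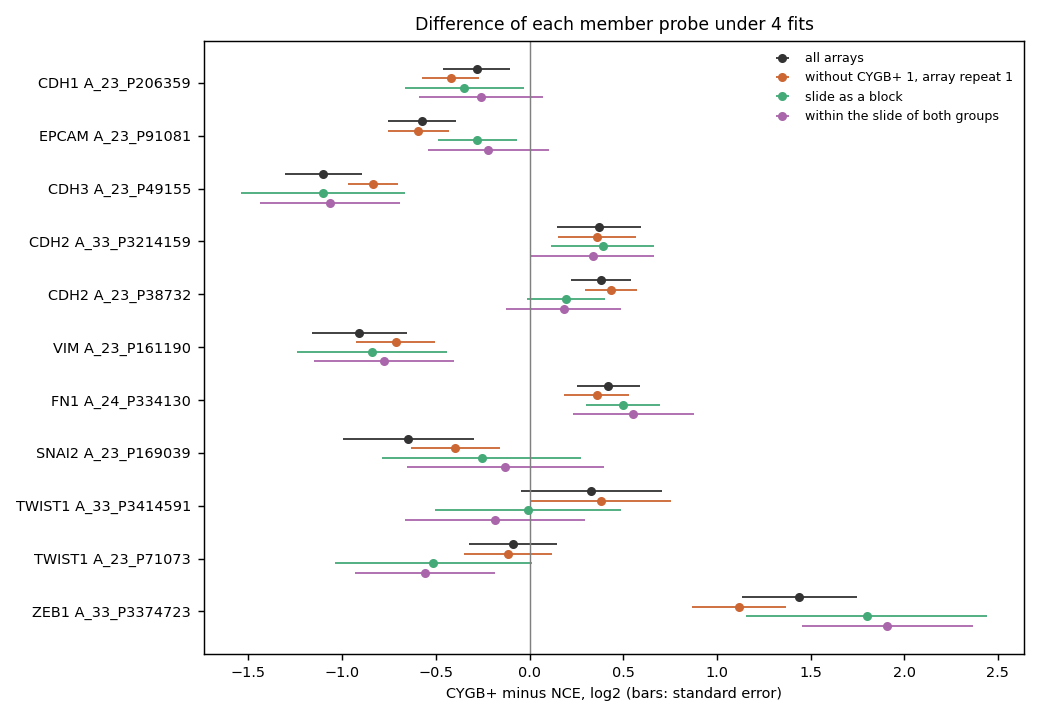
Difference between CYGB+ and NCE on the log2 scale (horizontal axis) for each of the 11 tested probes (vertical axis), with standard errors as bars, for the fit to all arrays, the fit without array repeat 1 of CYGB+ replicate 1, the fit with slide as a block and the fit within the slide that held both groups. CDH1, EPCAM, CDH3, VIM, SNAI2 and TWIST1 (A_23_P71073) lie below 0 in all 4 fits. ZEB1, CDH2 and FN1 lie above 0 in all 4 fits, and TWIST1 (A_33_P3414591) moves from 0.33 to -0.18.

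Among the transcription factors, only 1 dim probe differed past the threshold. ZEB1, a repressor that recruits co-repressors to E-boxes, was read by A_33_P3374723 at 3.64, 3.94 and 4.33 in the NCE replicates and 5.88, 4.82 and 5.54 in the CYGB+ replicates. The probe was well above background in at least 1 of its 2 spots on 1 of 9 NCE arrays and on 6 of 6 CYGB+ arrays, and in both spots on 1 NCE and 4 CYGB+ arrays. It thus passed the filter only through the group in which it was higher, and most NCE arrays did not read this probe. The value of each such NCE array was also raised to the lowest signal of any probe above background on that array. The NCE mean was then 4.69 against the CYGB+ mean of 5.41, a 1.65-fold gap. Without the array that stood apart the CYGB+ mean was 5.09, and the gap was 1.32-fold. That lowest signal is not a strict limit for an unread probe, so no minimum fold follows. Over the 20 alternative fits that gave a value, the log2 difference ranged from 0.32 to 1.91. The measured NCE mean was 3.97, and the fit to the measured values gave an adjusted p of 0.0334. The array that stood apart read 6.85, against 4.76 to 5.63 on the other 5 CYGB+ arrays, and without it the fit gave an adjusted p of 0.0263. The call was lost with no filter on dim probes (adjusted p = 0.0764), and with a local background correction (normexp) the adjusted p was 0.108. It was 0.19 with slide as a block and 0.247 within the slide that held both groups. The second ZEB1 probe (A_33_P3640690), annotated to the same transcript, was above background on 1 of 9 NCE arrays and 0 of 6 CYGB+ arrays, with replicate values of 2.71 to 3.59 in NCE and 3.00 to 3.42 in CYGB+. The probes of this gene did not both give a signal, and the ZEB1 difference rests on 1 of them.

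ZEB2, the paralogue of ZEB1, was not read in these cells by either probe. The probe A_33_P3243832 was above background on 1 of 15 arrays, an NCE array, and A_23_P142560 on 0 of 15. Such values give no level to compare, and no difference is given. TWIST1, a helix-loop-helix factor, gave unlike readings on its 2 probes. A_33_P3414591 was above background on all 15 arrays, with 8.68, 8.38 and 7.57 in NCE and 8.58, 9.11 and 7.93 in CYGB+. The groups overlapped and the difference was 0.33 (SE 0.38, 95% confidence interval -0.55 to 1.21, adjusted p = 0.616). It turned to -0.18 (SE 0.48) within the slide that held both groups. The only NCE array there was of NCE replicate 1, the highest NCE replicate for this probe, so slide and replicate cannot be told apart. In both groups replicate 3 was the lowest, and the gap between replicates of 1 group exceeded the gap between the groups. A_23_P71073 lay near background, above it on 5 of 9 NCE and 3 of 6 CYGB+ arrays, and its difference was -0.09 (SE 0.24, adjusted p = 0.847).

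SNAI2 (Slug), a zinc-finger repressor that is also expressed in basal keratinocytes, was well above background on all 15 arrays. Its signal was 9.79, 10.43 and 10.29 in NCE and 8.82, 9.56 and 10.18 in CYGB+, and the groups overlapped. The difference was -0.65 (SE 0.35, 95% confidence interval -1.46 to 0.17, adjusted p = 0.282). The 2 arrays of CYGB+ replicate 1 read 8.07 and 9.58, and without the first, the array that stood apart, the difference was -0.40 (adjusted p = 0.289). Within the slide that held both groups it was -0.13 (SE 0.52). The only NCE array there, of NCE replicate 1, read 9.65, the lowest NCE array, so slide and replicate cannot be told apart.

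E-boxes of the form CAGGTG, or CACCTG on the other strand, were searched in the RefSeq promoter windows of GRCh38.p14, each from 250 bases before to 50 bases after a transcript start. The table held 12 windows of 5 of the 10 genes (CDH2, VIM, FN1, ZEB1 and ZEB2). CDH1, CDH3, EPCAM, SNAI2 and TWIST1 had none. The motif occurred in 2 of the 12 windows, both of ZEB1, and in 20.6% of all 35116 windows. The first is printed because ZEB1 is both an E-box factor and the factor gene whose probe differed, and the 250 bases before the VIM start, with no match, because VIM was the mesenchymal marker among the 10 genes with the largest difference. The ZEB1 stretch is chr10:31318167-31318416 and the VIM stretch chr10:17227991-17228240, both on the plus strand, with the E-box in capitals. In the ZEB1 stretch the motif begins 57 bases before the start. The other ZEB1 window with matches, chr10:31318966-31319265, held the motif 3 times.
ZEB1: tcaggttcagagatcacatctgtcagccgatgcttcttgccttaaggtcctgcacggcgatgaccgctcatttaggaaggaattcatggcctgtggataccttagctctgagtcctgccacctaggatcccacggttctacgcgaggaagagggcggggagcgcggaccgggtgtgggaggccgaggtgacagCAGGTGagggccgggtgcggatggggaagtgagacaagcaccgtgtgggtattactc
VIM: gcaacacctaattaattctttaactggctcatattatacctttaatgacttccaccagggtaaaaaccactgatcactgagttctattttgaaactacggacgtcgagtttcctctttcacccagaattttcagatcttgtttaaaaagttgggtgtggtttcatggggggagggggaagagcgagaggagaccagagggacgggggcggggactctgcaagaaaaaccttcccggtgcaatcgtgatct
A match describes letters in a window, and no binding was measured.

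Array repeats were averaged before the main fit, so its standard errors rest on the spread between biological replicates. The spread between array repeats is given beside it. Over all arrays the SD between array repeats of 1 biological replicate was 0.049 for CDH2 (A_33_P3214159), 0.11 for FN1, 0.34 for VIM, 0.44 for SNAI2, 0.47 for CDH3 and 0.63 for ZEB1. Without the array that stood apart it was 0.048 for VIM, 0.095 for SNAI2, 0.11 for CDH3 and 0.32 for ZEB1. The SD between biological replicates within a group was 0.30 for CDH2 (A_33_P3214159), 0.35 for VIM, 0.54 for SNAI2 and 0.58 for TWIST1 (A_33_P3414591). For CDH2 (A_33_P3214159) and TWIST1 (A_33_P3414591) the extractions thus differed by more than the arrays of 1 extraction did. For TWIST1 the SD between array repeats was 0.21.

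The wider programme was read from 6 lists of genes with known roles in cell contacts or in the transition. Over these lists 14 of 112 tested probes were called (12.5%), 5 higher and 9 lower in CYGB+, beside 8.26% of all probes tested. Groups did not overlap for 42 of the 112 (37.5%), beside 33%. Without the array that stood apart 33 were called (29.5%), beside 16.6% of all probes in the same fit. The lists were chosen with earlier results of these data known, and this array was left out after seeing the data. These shares are therefore descriptions. Of the 112, with 1 replicate left out 4 to 18 were called, beside 209 to 857 higher and 180 to 798 lower of all 22311 probes. With slide as a block 6 of the 112 were called, beside 263 higher and 390 lower of all probes. The lists held members moving in either direction. Of the cadherin partners, catenins, nectins and other proteins of cell junctions, 20 probes of 12 genes were tested, with a median of 0.00. Of these 1 was higher and 0 were lower (5% called, beside the 8.26% of all probes). The called probe read CTNNA1 (alpha-catenin), at 10.11, 10.29 and 10.20 in NCE and 11.33, 11.10 and 10.96 in CYGB+ (difference 0.93, SE 0.16, limma adjusted p = 0.0187). The brighter CTNNA1 probe (A_23_P58647) gave 0.61 (adjusted p = 0.0621). The call of CTNNA1 was lost with slide as a block (0.85, SE 0.23, adjusted p = 0.0636).

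Among other epithelial markers, 2 of 26 tested probes were lower (7.69%), 0 were higher, and the median was -0.02. Of all probes tested, 3.89% were lower and 4.37% higher. CLDN1 (claudin-1), a tight junction protein, gave 11.34, 12.11 and 12.50 in NCE and 10.17, 9.66 and 10.43 in CYGB+ (difference -1.90, SE 0.33, limma adjusted p = 0.0176). PKP3 (plakophilin-3), a desmosome protein, gave 15.38, 15.24 and 15.08 in NCE and 14.22, 14.31 and 14.07 in CYGB+ (difference -1.03, SE 0.16, limma adjusted p = 0.013). The groups did not overlap for either gene. Fitted with slide as a block, PKP3 was -0.98 (adjusted p = 0.0203) and CLDN1 -1.53 (adjusted p = 0.0885), so the call of CLDN1 was lost. Regulators that maintain the epithelial state had 3 of 15 tested probes lower (20%, beside 3.89% of all probes) and 0 higher, with a median of -0.28. GRHL1, a grainyhead factor of stratified epithelium, fell by 1.07 (SE 0.18, adjusted p = 0.0146). ESRP1, an epithelial splicing factor, fell by 1.02 (SE 0.16, adjusted p = 0.0135). OVOL2, a zinc-finger repressor of mesenchymal genes, fell by 0.71 (SE 0.14, adjusted p = 0.0292). The differences of GRHL1, ESRP1 and OVOL2 were -0.87, -1.15 and -0.59 within the slide that held both groups. ESRP1 kept its call with slide as a block (adjusted p = 0.00794), and GRHL1 (adjusted p = 0.254) and OVOL2 (adjusted p = 0.0608) lost theirs.

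The other mesenchymal markers split. Of 18 tested probes, 2 were higher and 1 lower (16.7% called, beside 8.26% of all probes), with a median of -0.01. SPARC, a matrix-associated glycoprotein, gave 9.87, 9.51 and 9.67 in NCE and 11.56, 11.65 and 11.44 in CYGB+ (difference 1.87, SE 0.16, limma adjusted p = 0.00238). COL5A2, a chain of type V collagen, was higher by 1.15 (SE 0.21, adjusted p = 0.0216). COL1A2, a chain of type I collagen, gave 8.54, 8.43 and 8.36 in NCE and 5.82, 6.31 and 5.597 in CYGB+ (difference -2.53, SE 0.21, limma adjusted p = 0.00215). With slide as a block SPARC was 1.55 (adjusted p = 0.00354), COL1A2 -2.801 (adjusted p = 3.5e-05) and COL5A2 0.79 (SE 0.46, adjusted p = 0.543), so the call of COL5A2 was lost. That fit took single arrays, so its smaller adjusted p for COL1A2 is not a stronger result than that of the main fit. COL1A2 is also on the list of fibroblast markers, where COL3A1, LUM, PDGFRB and THY1 were above background on 0 of 15 arrays.

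Of 14 tested probes of other transcription factors of the transition, 2 were higher and 2 lower, with a median of -0.11. The share called was 28.6%, beside 8.26% of all probes. TCF4, a helix-loop-helix factor, was higher by 1.33 (SE 0.21, adjusted p = 0.013), and LEF1, the nuclear partner of beta-catenin, by 0.96 (SE 0.19, adjusted p = 0.0271). HMGA2, an architectural chromatin protein, was lower on the probe A_23_P95930, at 14.59, 14.71 and 14.73 in NCE and 12.34, 13.27 and 13.90 in CYGB+ (difference -1.51, SE 0.36, limma adjusted p = 0.0466). Its 2 other probes gave 0.15 (adjusted p = 0.671) and -0.11 (adjusted p = 0.832), so the probes of HMGA2 disagree. BACH1, a haem-regulated repressor, had a mean of 10.32 ± 0.25 (SD, n = 3) in NCE and 9.32 ± 0.19 in CYGB+ (limma adjusted p = 0.0252). TCF4 kept its call with slide as a block (0.995, adjusted p = 0.0458), and LEF1 (adjusted p = 0.204), HMGA2 (adjusted p = 0.059) and BACH1 (adjusted p = 0.175) lost theirs.

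Of 19 tested probes of ligands, receptors and SMADs of the pathways tied to the transition, inhibitors included, 1 was lower and 0 were higher, with a median of -0.16. The share called was 5.26%, beside 8.26% of all probes. The lower probe read TGFB2, a ligand of the transforming growth factor beta family, at 8.59, 9.01 and 8.55 in NCE and 6.95, 6.42 and 6.07 in CYGB+. Its groups were far apart, with a difference of -2.23 (SE 0.26, limma adjusted p = 0.00546). With slide as a block it was -2.05 (adjusted p = 0.0128) and within the slide that held both groups -2.02 (adjusted p = 0.172). The inhibitor SMAD7 had the highest difference of this list, 1.01 (SE 0.29, adjusted p = 0.0765), which did not pass. The other ligands of the family went in opposite directions, TGFB1 0.90 (SE 0.30, adjusted p = 0.111) and TGFB3 -0.73 (SE 0.18, adjusted p = 0.0526). Neither passed. Without the array that stood apart the adjusted p was 0.0492 for SMAD7, 0.0457 for TGFB1 and 0.0383 for TGFB3. Of the 19 probes, 8 were positive and 11 negative.

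**Figure D3:**
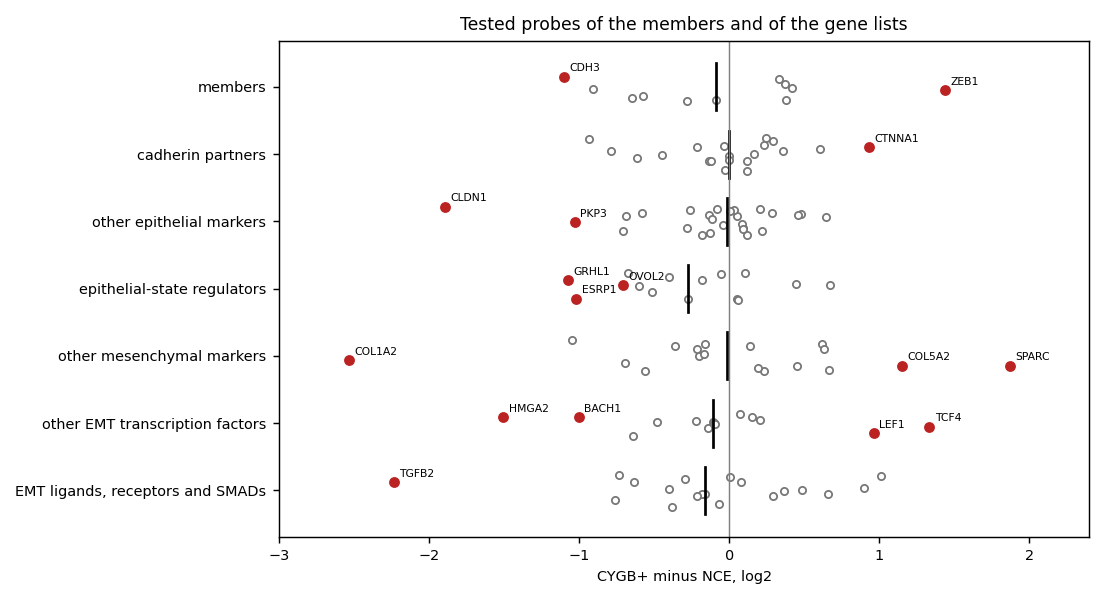
Difference between CYGB+ and NCE on the log2 scale (horizontal axis) for every tested probe of the 10 genes (members) and of the 6 lists (vertical axis, points spread for legibility), with filled points for probes past an adjusted p of 0.05 and a bar at each list's median. The medians lie between -0.28 and 0.00, and COL1A2 at -2.53 and SPARC at 1.87 are the ends of the range.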

How the data were processed

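RNA of 6 extractions was hybridised to 15 arrays, and Feature Extraction 10.7.3.1 produced the deposited scanner files. Per the file headers the intensity columns are background-subtracted and, in a protocol for 2 dyes, dye-normalized, which ties the green value to a red channel of unstated RNA. The authors also deposited 1 table of values, which tracked the natural log of the background-subtracted green signal with a slope of 1.00 for each of 14 arrays set against the remaining one. Each of its probes was shifted by a constant, with array medians of -0.161 to 0.183, and what that shift was is not stated. It served as an alternative.

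Probes were named by matching RefSeq accessions to a table of GRCh38.p14 genes (25420 of 26310 matched). Spots marked as outliers were left out (0.608% to 1.8% of an array), spots of a probe were averaged as log2 values, arrays were quantile-normalized, and array repeats were averaged. Probes well above background, in at least 50% of their spots, on at least 6 of 15 arrays were tested with limma 3.58.1 in R 4.3.3, with Benjamini-Hochberg adjustment over 22311 probes. The number of extractions limits the precision. The files held no mean foreground signal, so the background-corrected alternative (normexp, offset 50) used the median signal. Deviations of same-numbered replicates of the 2 groups had r = 0.220, 0.280 and 0.314 over probes, and differently numbered pairs ranged from -0.499 to 0.225. Deviations from a group mean cancel out, so some negative values are built in, and these values do not establish a pairing. The number was also fitted as a block. The procedure was tested on simulated data.

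Genes named within lists were, for each list, up to 4 with the largest difference among those past the threshold whose replicates did not overlap. SMAD7, TGFB1 and TGFB3 are named besides, although they did not pass. The 10 genes, lists and tests were chosen with earlier results of these data known. Alternatives that leave out single arrays, keep marked spots or ask for more than 50% of a probe's spots above background were chosen after seeing the data.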

Additional observations from a re-analysis of the deposited data

Results flagged for a closer look

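Within 1 group, 8 of 30 sets of array values of the 14 member probes and CYGB held a single array whose gap to the nearest other array was large for the range of its group by Dixon's criterion at 95%. Chance gives such a gap in about 1 in 20 sets, and array repeats of an extraction are not independent. Array repeat 1 of CYGB+ replicate 1 gave 3 of them. It read CDH3 at 11.45 (nearest array 12.71), VIM at 11.67 (nearest 12.52) and SNAI2 at 8.07 (nearest 9.53), each on the low side. CDH1 was high on array repeat 2 of NCE replicate 3, at 12.71 (nearest 12.22). EPCAM was high on array repeat 1 of CYGB+ replicate 3, at 14.02 (nearest 13.64). FN1 was low on array repeat 2 of CYGB+ replicate 1, at 9.91 (nearest 10.29). The ZEB2 probe A_33_P3243832 read 3.01 on array repeat 2 of CYGB+ replicate 2 and the ZEB2 probe A_23_P142560 read 3.78 on array repeat 1 of NCE replicate 1, both below background.

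In the red channel, which the comparisons did not use, 9 of the 14 member probes were well above background on all 15 arrays. The RNA behind that signal is not given in the sources used here.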

How the results depend on the processing

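Each result was recomputed under up to 23 alternatives, 6 of them chosen after seeing the data. Over all probes, 976 higher and 868 lower became 633 and 563 with no filter on dim probes, 2410 and 2341 with single arrays and the biological replicate as a random block, 263 and 390 with slide as a block as well, 20 and 13 within the slide that held both groups, and 355 and 300 by the methods' t-test after Benjamini-Hochberg adjustment. Without array repeat 1 of CYGB+ replicate 1 they were 1908 and 1786, whether that array was left out before or after quantile normalization, and 636 and 928 with slide as a block as well, so that most calls were then lower. Without 3 arrays that stood apart they were 2506 and 2380. Leaving out each replicate in turn gave 209 to 857 higher and 180 to 798 lower.

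Of the 11 member probes, 6 were called with the random block, 4 without the 3 arrays, and 1 with no filter, with the authors' values, with more than 50% of spots required above background, or with slide as a block without array repeat 1 of CYGB+ replicate 1. The number was 0 with slide as a block and by the t-test on replicate means, and 0 to 2 with a replicate left out. The 14 list probes called became 27 with normexp, 38 with the random block, 6 with slide as a block and 5 by the t-test. Their number was 33 without array repeat 1 of CYGB+ replicate 1, 37 without the 3 arrays, and 4 to 18 with a replicate left out. With the replicate number as a block the fit gave 1302 probes higher and 1299 lower, 22 list probes and 2 member probes, CDH3 and ZEB1, and changed no call of a member.

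The difference of CYGB changed sign with the 75th percentile (0.11) or the median (0.12) of each array subtracted and with the authors' values (0.047), and ranged from -0.30 to 0.23 with a replicate left out. TWIST1 (A_33_P3414591) turned to -0.0079 with slide as a block and -0.18 within the slide. TWIST1 (A_23_P71073), near background, turned to 0.053 with normexp and ranged from -0.26 to 0.088 with a replicate left out. The other 9 tested member probes kept their direction in every alternative that gave a value. CDH1, VIM, ZEB1 and ZEB2 had no value in the authors' table. The cause of these changes was not tested, and 6 extractions limit what can be called.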
